A study of Mus musculus with 30 samples.

Results

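The genes described here are 10 members of the IL-6 cytokine family pathway, Il6, Lif, Il11, Clcf1, Il6st, Il6ra, Lifr, Osmr, Il11ra1 and Socs3, taken by name from 58969 gene symbols in 4 bulk RNA-seq tables and from 2 single-cell matrices of cultured mouse heart cells. They are defined by name and place in the pathway, with earlier results of these data known, and all 10 passed the filter on low counts in each of the 4 bulk tables. The study asked why cardiac fibroblasts (CFs) from adult and aged hearts are hard to turn into induced cardiomyocytes with Mef2c, Gata4 and Tbx5 (MGT), and what the nuclear receptor gene Nr4a3 does in that process. All cells were primary cells of wild-type mouse hearts labelled as cardiac fibroblasts, and neonatal means postnatal day 1 to 3. CFs of neonatal, 3-month, 12-month and 24-month mice had been cultured for 3 days with no vector named. Cells of neonatal, 3-month and 18-month mice had received MGT or LacZ and were collected at day 3. Neonatal CFs had Nr4a3 overexpressed (OE-Nr4a3) or were its controls (OE-Ctrl) and are labelled day 10, although the design text gives day 7. MGT cells of 3-month mice also had Nr4a3 knocked down (MGT+shNr4a3) or carried the control shNT (MGT+shNT) and were collected at day 7. These 14 bulk groups had n = 2 libraries each, and MGT cells of 24-month and neonatal mice were profiled as 1 single-cell library each. The labels do not say whether replicates came from separate animals or cultures, so a p-value here reflects no more than how far the libraries of a group differ, which may be technical.

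IL-6 family cytokines act through receptor complexes that share the signal-transducing chain gp130, encoded by Il6st. IL-6 and IL-11 first bind their own receptors, encoded by Il6ra and Il11ra1, whereas leukaemia inhibitory factor (Lif) signals through Lifr paired with gp130, oncostatin M through Osmr paired with gp130, and Clcf1 through the ciliary neurotrophic factor receptor complex. Engaged gp130 activates JAK kinases and the transcription factor STAT3, and Socs3 is a STAT3-induced inhibitor that binds gp130 and closes the loop. In the heart, fibroblasts are known as a source of IL-6 and IL-11, and IL-11 is known as a profibrotic signal in mice.

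In GRCm38 coordinates the ligand genes were Il6 (ENSMUSG00000025746, chromosome 5, 30013114 to 30019981, plus strand), Lif (ENSMUSG00000034394, chromosome 11, 4257557 to 4272514, plus strand), Il11 (ENSMUSG00000004371, chromosome 7, 4772373 to 4782859, minus strand) and Clcf1 (ENSMUSG00000040663, chromosome 19, 4214238 to 4223490, plus strand). The receptor genes were Il6st (ENSMUSG00000021756, chromosome 13, 112464070 to 112510086, plus strand), Il6ra (ENSMUSG00000027947, chromosome 3, 89864059 to 89913196, minus strand), Lifr (ENSMUSG00000054263, chromosome 15, 7090614 to 7197489, plus strand), Osmr (ENSMUSG00000022146, chromosome 15, 6813577 to 6874969, minus strand) and Il11ra1 (ENSMUSG00000073889, chromosome 4, 41699989 to 41769474, plus strand). Socs3 (ENSMUSG00000053113) lay on chromosome 11, 117966079 to 117970047, minus strand. Il11ra1 has near-identical copies. Of these, Il11ra2 had at most 44 counts and Gm13305 at most 23 counts in any library, while Il11ra1 had at least 448. The annotated Il11ra1 gene overlaps other genes on both strands, Clcf1 overlaps a same-strand gene model and Il6ra an antisense one, so the split of reads there depends on the authors' counting, whose strand setting is not given in the sources used here.

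Levels are CPM, the usual unit of counts divided by library size, here after TMM scaling within a table, and the 4 tables were scaled and tested separately. Libraries held 17283764 to 22311330 counts in the CF table, 14489836 to 18796708 in the MGT and LacZ table, 14275501 to 18441428 in the overexpression table and 39746879 to 43448379 in the knockdown table. The summed level of 10 fibroblast markers was 8836 CPM or more in every bulk library, and 5 T and B cell markers together stayed at or below 0.682 CPM. Nr4a3 averaged 177 ± 1.72 CPM in OE-Nr4a3 and 2.17 ± 0.450 CPM in OE-Ctrl cells, and 0.587 ± 0.221 CPM in MGT+shNr4a3 and 8.51 ± 0.468 CPM in MGT+shNT cells (SD, n = 2 each), in the labelled directions. In bulk samples, fewer cells of a type and less RNA per cell cannot be told apart.

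Adult CFs carried more RNA of nearly the whole family than neonatal CFs. At 3 months 9 of the 10 genes were higher than in neonatal cells at an adjusted p under 0.05 (edgeR quasi-likelihood test, Benjamini-Hochberg over 16466 genes), at 12 months 10 and at 24 months 9, and none was lower. Over all genes tested, 28.0%, 29.7% and 27.9% were higher at 3, 12 and 24 months, and 52.5%, 55.2% and 54.5% differed in either direction. The 3 comparisons share the neonatal libraries. The median log2 fold change of the 10 genes was 1.05, 1.10 and 1.12 at 3, 12 and 24 months, beside 0.01, 0.03 and -0.01 over all genes. The largest differences were those of Il6, Lif and Socs3.

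Il6, the founding cytokine of the family, had 20.5 and 24.0 CPM in neonatal CFs, 134 and 120 CPM at 3 months, 119 and 122 CPM at 12 months and 171 and 166 CPM at 24 months. Every adult library lay above both neonatal ones, and the 24-month libraries lay above all others. Relative to neonatal cells its log2 fold change was 2.52 ± 0.07 at 3 months (SE, edgeR adjusted p = 6.5e-25), 2.44 ± 0.07 at 12 months (1.9e-24) and 2.93 ± 0.07 at 24 months (6.2e-27). Lif rose as well, with 27.5 and 26.7 CPM in neonatal, 111 and 121 CPM in 3-month, 135 and 132 CPM in 12-month and 151 and 159 CPM in 24-month CFs. Its groups did not overlap at any step, and its log2 fold change reached 2.52 ± 0.06 at 24 months against neonatal cells (edgeR adjusted p = 4.9e-27). Clcf1, a ligand of the ciliary neurotrophic factor receptor, differed less, with 18.4 and 20.4 CPM in neonatal, 27.3 and 26.9 CPM in 3-month, 38.0 and 40.8 CPM in 12-month and 36.5 and 28.5 CPM in 24-month CFs. Il11 was close to the detection limit in every CF library. It had 14 and 7 counts in neonatal, 10 and 15 in 3-month, 20 and 24 in 12-month and 18 and 20 in 24-month libraries, and its single call, at 12 months (log2 fold change 1.12 ± 0.44, edgeR adjusted p = 0.033), was lost without either 12-month library, without neonatal replicate 2, with DESeq2 and without the low-count filter (adjusted p up to 0.217 over its alternatives).

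**Figure D1:**
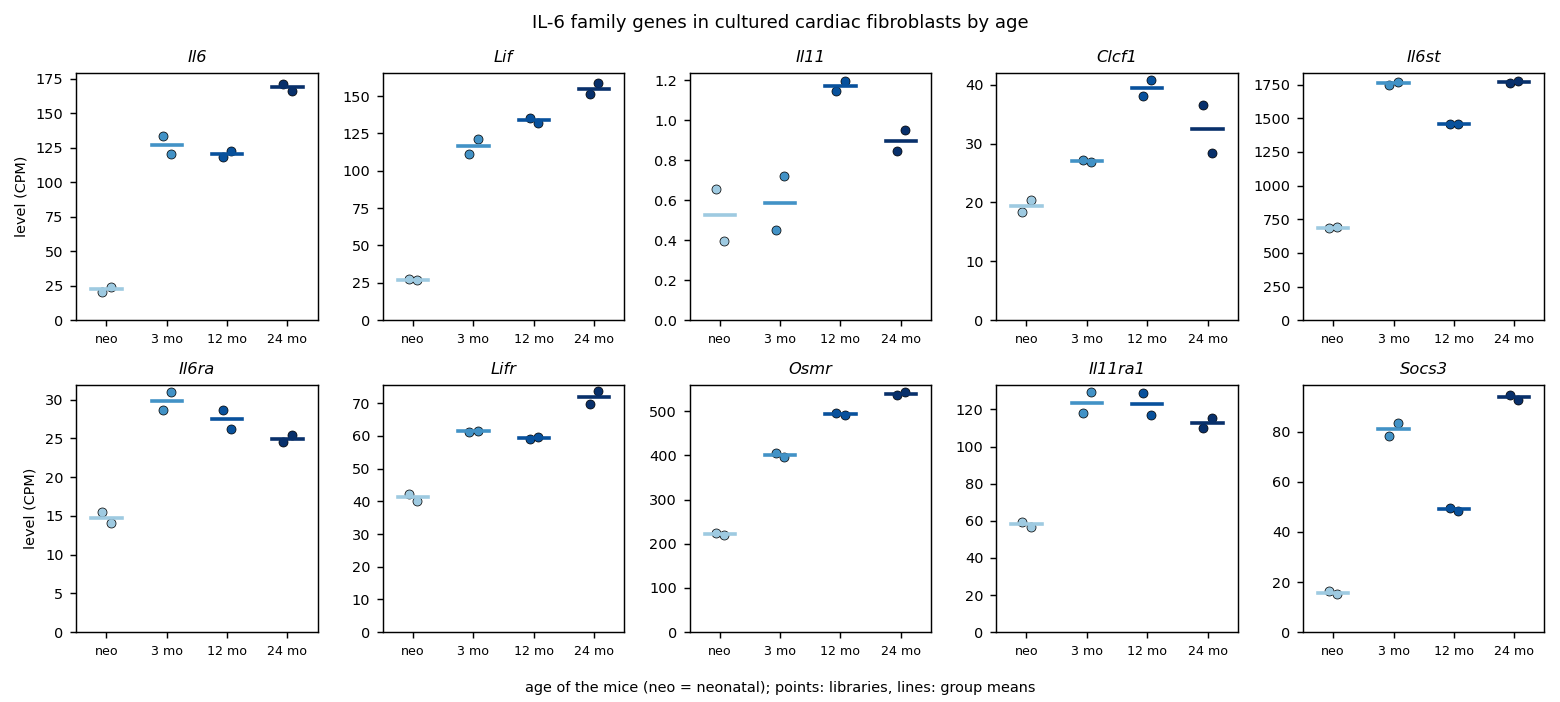
Levels of the 10 genes in CPM (linear axes from 0) in cultured CFs of neonatal, 3-month, 12-month and 24-month mice, with a point per library (n = 2) and a line at the group mean. The neonatal points lie lowest in every panel but that of Il11, where all points are at or below 1.19 CPM.

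The receptors rose as well, at very different levels. Il6st, the shared chain, had 681 and 694 CPM in neonatal, 1745 and 1773 CPM in 3-month, 1461 and 1454 CPM in 12-month and 1763 and 1780 CPM in 24-month CFs. The 12-month libraries lay between the neonatal ones and those of both other adult ages, and the log2 fold change against neonatal cells was 1.36 ± 0.04, 1.08 ± 0.04 and 1.37 ± 0.04 at 3, 12 and 24 months. Osmr, the oncostatin M receptor chain, increased at each step, with 225 and 221 CPM, 406 and 397 CPM, 496 and 491 CPM, and 537 and 543 CPM at the 4 ages. Il11ra1 had 110 to 129 CPM in the adult libraries, whose ages overlapped, and 59.4 and 56.7 CPM in neonatal CFs. Il6ra averaged 29.8 ± 1.70 CPM in 3-month and 14.8 ± 1.05 CPM in neonatal CFs (SD, n = 2 each), and its adult libraries all lay above both neonatal ones. Lifr showed the smallest rise of the receptors at 12 months, with 59.0 and 59.6 CPM in 12-month and 42.4 and 40.1 CPM in neonatal CFs (log2 fold change 0.52 ± 0.06, edgeR adjusted p = 1.1e-08). These calls of the 5 receptor genes held with each library left out in turn, at all 3 adult ages.

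Socs3, the feedback inhibitor, was lower at 12 months than at both other adult ages. It had 16.4 and 15.2 CPM in neonatal, 78.4 and 83.7 CPM in 3-month, 49.7 and 48.2 CPM in 12-month and 94.6 and 92.8 CPM in 24-month CFs, with no overlap between any of the 4 groups. Its log2 fold change was -0.73 ± 0.06 for 12 against 3 months (edgeR adjusted p = 1.4e-11) and 0.94 ± 0.06 for 24 against 12 months (5.9e-14). Between adult ages, 3 members were higher and 2 lower at 12 than at 3 months (28.5% of all genes differed), 6 higher and 1 lower at 24 than at 3 months (18.3%), and 6 higher and 1 lower at 24 than at 12 months (18.9%). Il6 was higher at 24 months than at 3 months (log2 fold change 0.41 ± 0.05, edgeR adjusted p = 4.0e-07) and than at 12 months (0.49 ± 0.05, 2.3e-08). Sex and age cannot be told apart between 24-month CFs and both other adult ages, given the Xist levels below. Some small calls among adult ages were lost when 1 library was left out, which leaves 1 library in that group. In such fits the log2 fold change of Osmr at 24 against 12 months stayed at 0.12 to 0.14 (0.13 with all libraries). That of Clcf1 at 24 against 3 months ran from 0.08 to 0.43 (0.26 with all libraries). Clcf1 and Il6ra at 24 against 3 months, and Clcf1 and Osmr at 24 against 12 months, were each lost in 2 or 3 of 4 fits with 1 library left out, with adjusted p up to 0.726 and 0.277 and up to 0.526 and 0.105 over their alternatives. Lif at 12 against 3 months was lost without 3-month replicate 1 (0.0855), as was Socs3 at 24 against 3 months (0.124), and Lifr at 24 against 3 months without 24-month replicate 2 (0.0832).

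Other genes of the pathway, listed by role, also differed in adult CFs, in both directions. Over all genes tested, 28.0%, 29.7% and 27.9% rose against neonatal cells at 3, 12 and 24 months, and 52.5%, 55.2% and 54.5% differed in either direction. Of 8 signal relay genes (JAK kinases, STAT factors and the phosphatase gene Ptpn11), 6 rose at 3 months and 5 each at 12 and 24 months against neonatal cells, and none fell. Jak1, Stat3 and Jak2 had log2 fold changes of 1.31 ± 0.04, 1.17 ± 0.04 and 1.29 ± 0.05 at 24 months. Of 17 genes known as STAT3 targets, 13, 12 and 15 rose at 3, 12 and 24 months and 2 fell at each age, with a median log2 fold change of 1.61, 1.79 and 2.15. The chemokine gene Ccl2, the protease inhibitor gene Timp1, the adhesion molecule gene Icam1 and the kinase gene Pim1 rose by 3.14 ± 0.05, 2.62 ± 0.05, 2.15 ± 0.05 and 1.57 ± 0.07 at 24 months, while Mcl1 and Myc, named because they were the pair that fell, fell by 0.40 ± 0.04 and 0.21 ± 0.06. Of 5 other feedback genes Socs1, Socs2 and Ptpn2 rose and Cish fell at each adult age. Adam17, which sheds the IL-6 receptor, rose by 0.99 ± 0.05, 0.95 ± 0.05 and 0.91 ± 0.05 at 3, 12 and 24 months, and Adam10 fell by 0.14 ± 0.04, 0.35 ± 0.04 and 0.19 ± 0.04. Of 8 other ligands, 3 passed the count filter in the CF table. The summed level of the 8 was 7.45 to 7.60 CPM in neonatal and 33.98 to 39.98 CPM in 3-month CFs. It was 102.9 to 108.2 CPM at 12 months and 70.65 to 83.36 CPM at 24 months, and up to 3 of the 8 were at 0 in a library.

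Other markers differed between the CF ages too. The summed level of 10 cardiomyocyte markers was 11.02 to 36.9 CPM in adult and 1064 to 1151 CPM in neonatal libraries, and that of 10 endothelial markers was 145 to 275 CPM in adult and 1010 to 1022 CPM in neonatal libraries. The epicardial and mesothelial sum was 1.29 to 6.79 CPM in adult and 187 to 188 CPM in neonatal libraries, and the macrophage sum 152 to 260 CPM in adult and 335 to 336 CPM in neonatal libraries. The fibroblast sum was 21660 to 35230 CPM in adult and 46860 to 47460 CPM in neonatal libraries. In the adult libraries up to 2 cardiomyocyte and up to 4 epicardial and mesothelial markers were at 0. Xist, transcribed in female cells, averaged 1283 ± 7.82 CPM in neonatal, 0.464 ± 0.0209 CPM in 3-month, 0.367 ± 0.114 CPM in 12-month and 804 ± 40.9 CPM in 24-month CFs (SD, n = 2 each). Sex and age therefore cannot be told apart where 3-month or 12-month CFs are set against 24-month or neonatal CFs. The part of cell composition and sex in the differences between CF ages was not tested.

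The windows before the starts of Il6, Lif, Il11 and Socs3 are shown because these were the members with a motif match for a factor of cytokine signalling. They are the 250 bases upstream of a RefSeq start (GRCm38.p6), printed 5′ to 3′ on the gene's strand with matches in capitals. The 9 members that had windows held 12 of them, and Il11 had a further window without a match.
Il6, chr5:30012864-30013113, plus strand: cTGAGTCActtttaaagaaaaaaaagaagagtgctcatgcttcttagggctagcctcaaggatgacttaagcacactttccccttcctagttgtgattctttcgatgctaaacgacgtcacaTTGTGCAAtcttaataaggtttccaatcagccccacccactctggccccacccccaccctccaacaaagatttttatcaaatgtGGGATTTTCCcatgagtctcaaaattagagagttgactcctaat
Lif, chr11:4257318-4257567, plus strand: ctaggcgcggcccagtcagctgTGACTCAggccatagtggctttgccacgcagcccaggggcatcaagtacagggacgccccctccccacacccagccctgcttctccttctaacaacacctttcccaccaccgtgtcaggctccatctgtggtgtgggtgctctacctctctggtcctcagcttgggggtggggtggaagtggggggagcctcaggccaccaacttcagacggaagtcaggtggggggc
Il11, chr7:4778142-4778391, minus strand: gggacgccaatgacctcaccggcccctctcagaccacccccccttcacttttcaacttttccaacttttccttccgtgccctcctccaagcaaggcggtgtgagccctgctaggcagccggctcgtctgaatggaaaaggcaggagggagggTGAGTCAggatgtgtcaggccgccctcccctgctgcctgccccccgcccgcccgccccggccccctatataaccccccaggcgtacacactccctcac
Socs3, chr11:117969367-117969616, minus strand: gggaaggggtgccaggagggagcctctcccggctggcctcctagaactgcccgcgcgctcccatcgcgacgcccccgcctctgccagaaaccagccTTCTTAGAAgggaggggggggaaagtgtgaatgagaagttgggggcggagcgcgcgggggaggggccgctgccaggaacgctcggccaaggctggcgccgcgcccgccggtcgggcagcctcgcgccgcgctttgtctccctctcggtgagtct
Searched on both strands were the STAT motif TTCNNNGAA, the NF-kappaB consensus, the AP-1 motif TGANTCA, the cyclic AMP response element TGACGTCA, the C/EBP motif TTGCNNAA and the Nr4a motif AAAGGTCA. In Il6 the capitals mark, from left to right, AP-1, C/EBP and NF-kappaB matches. In Lif and Il11 they mark an AP-1 match and in Socs3 a STAT match, 154 to 146 bases before the start. Of 32851 windows of the same length, 6.75% held the AP-1 motif, 9.56% the C/EBP motif, 0.356% the NF-kappaB motif and 7.02% the STAT motif. No member's window held the exact letters TGACGTCA, found in 1.55% of windows, or AAAGGTCA, found in 1.34%. The matches are letters in a window and not shown to be bound here.

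In cells that had received LacZ, the family differed with age in a different order. Of the 10 genes, 9 were higher in 3-month than in neonatal LacZ cells (30.9% of all genes differed), 8 were higher and Lifr lower in 18-month than in neonatal cells (35.0%), and 1 was higher and 7 lower in 18-month than in 3-month cells (23.0%). Il6 had 111 and 128 CPM in neonatal, 627 and 798 CPM in 3-month and 190 and 228 CPM in 18-month LacZ cells, so the 3-month libraries were far above both other ages. Its log2 fold change was 2.58 ± 0.15 for 3 months against neonatal and -1.77 ± 0.14 for 18 against 3 months (edgeR adjusted p = 1.1e-08 and 8.0e-07). Socs3 had the same peak, with 11.7 and 13.8 CPM, 61.6 and 61.9 CPM, and 21.2 and 28.2 CPM at the 3 ages. Clcf1 did not peak at 3 months, with 23.5 and 21.2 CPM, 53.3 and 54.0 CPM, and 72.0 and 67.4 CPM. The 18-month calls of Lif, Il6ra, Lifr and Osmr against neonatal cells, and of Clcf1, Lifr and Osmr against 3-month cells, were each lost in 1 or 2 of 4 fits with 1 library left out (adjusted p up to 0.160 over their alternatives). Markers of other cells differed with age in these libraries. At neonatal age, 3 months and 18 months the epicardial and mesothelial sum was 732 to 798, 8.76 to 9.48 and 14.1 to 15.3 CPM, the endothelial sum 342 to 376, 42.5 to 44.1 and 23.9 to 32.8 CPM, and the cardiomyocyte sum 295 to 341, 4.66 to 5.50 and 3.79 to 6.32 CPM. The fibroblast sum was 39060 to 39160, 21990 to 27510 and 15890 to 17510 CPM, the macrophage sum 217 to 273, 336 to 344 and 351 to 374 CPM, and the pericyte and smooth muscle sum 642 to 643, 421 to 514 and 314 to 357 CPM. Their part in the age differences was not tested.

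MGT cells showed the same peak in Il6 and Socs3 and a steeper one in Il11. Of the 10 genes, 7 were higher in 3-month than in neonatal MGT cells (26.1% of all genes differed), 7 were higher in 18-month than in neonatal cells (30.6%), and 1 was higher and 5 lower in 18-month than in 3-month cells (17.4%). Il11 had 1.52 and 0.908 CPM in neonatal, 41.3 and 53.3 CPM in 3-month and 15.5 and 19.1 CPM in 18-month MGT cells, a log2 fold change of 5.26 ± 0.24 for 3 months against neonatal (edgeR adjusted p = 4.5e-14) and 3.81 ± 0.26 for 18 months (3.4e-11). The same gene in LacZ cells had 1.37 and 1.01 CPM, 8.57 and 12.6 CPM, and 5.04 and 5.91 CPM. Il6 had 148 and 117 CPM, 578 and 630 CPM, and 181 and 160 CPM in MGT cells, and its difference between 18-month and neonatal cells did not pass the test (edgeR adjusted p = 0.072). The calls of Il6st at 3 months and Il6ra at 18 months against neonatal cells, and of Lif and Clcf1 at 18 against 3 months, were lost in 2 to 4 of 4 fits with 1 library left out (adjusted p up to 0.223 over their alternatives). In neonatal, 3-month and 18-month MGT cells the endothelial sum was 266 to 312, 40.1 to 48.0 and 34.6 to 39.6 CPM, the epicardial and mesothelial sum 362 to 391, 92.5 to 97.6 and 70.9 to 81.7 CPM, and the cardiomyocyte sum 1055 to 1564, 374 to 401 and 341 to 358 CPM. The fibroblast sum was 31000 to 31540, 18810 to 19410 and 16030 to 18030 CPM, the macrophage sum 181 to 252, 435 to 450 and 395 to 464 CPM, and the pericyte and smooth muscle sum 951 to 1013, 574 to 612 and 581 to 634 CPM. Their part in the age differences was not tested either. In this table Xist averaged at most 0.540 ± 0.0398 CPM in adult groups, against 483 ± 61.0 CPM in neonatal MGT and 532 ± 22.5 CPM in neonatal LacZ cells, so sex and age cannot be told apart in the comparisons with neonatal cells.

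**Figure D2:**
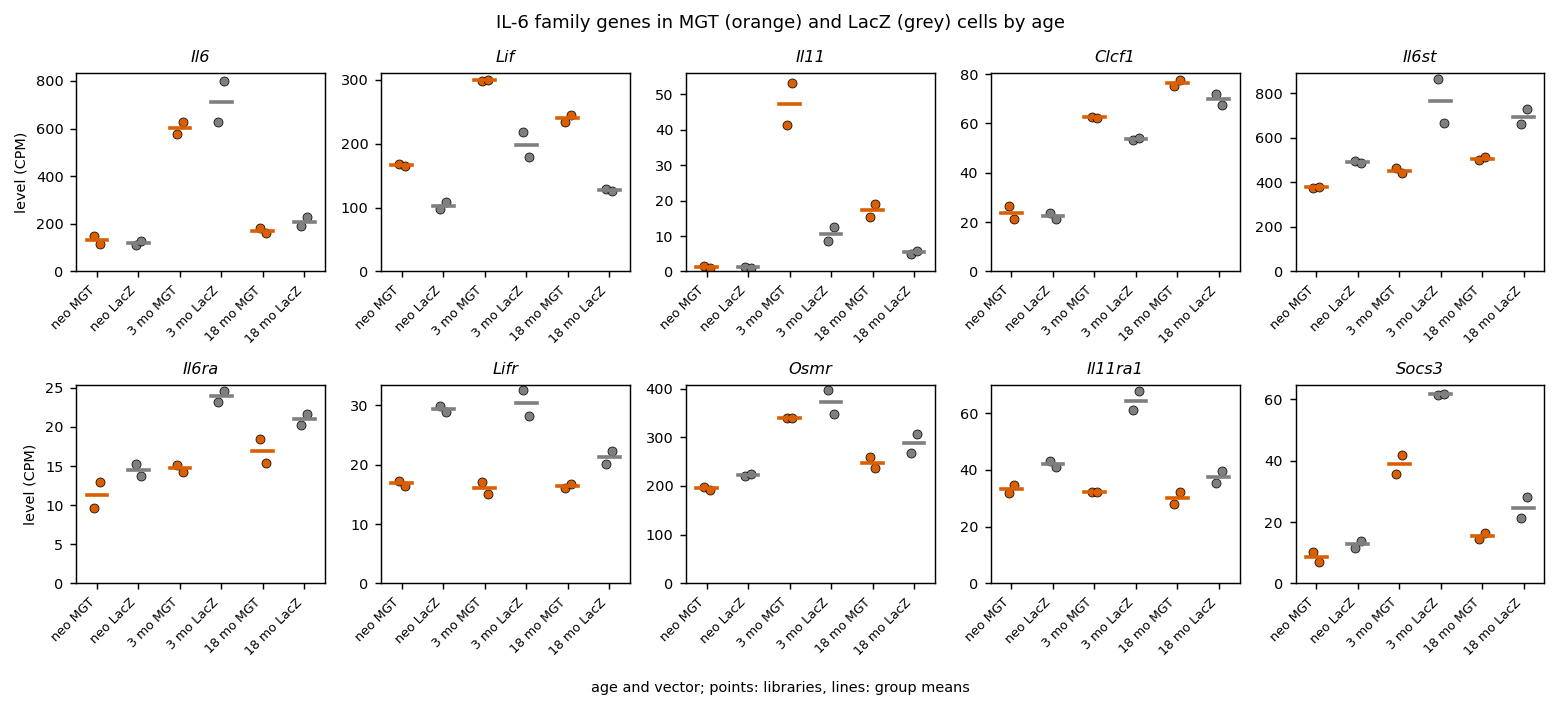
Levels of the 10 genes in CPM (linear axes from 0) in MGT cells (orange) beside LacZ cells (grey) at 3 ages, with a point per library (n = 2) and a line at the group mean. The MGT points of Lif lie above the LacZ points at each age, and those of Il11 do so at 3 and 18 months.

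MGT against LacZ at one age asks what the reprogramming factors did to the family by day 3. The ligand genes Lif and Il11 rose and several receptor genes fell, while the ligand genes Il6 and Clcf1 were not called at any age. At 3 months Il6 averaged 603.9 ± 36.2 CPM in MGT and 712.5 ± 120.6 CPM in LacZ cells (SD, n = 2 each). Clcf1 averaged 62.4 ± 0.296 CPM in MGT and 53.7 ± 0.471 CPM in LacZ cells there. In neonatal cells 1 member was higher and 3 lower with MGT (7.51% of 16368 genes differed), at 3 months 2 higher and 5 lower (17.4%), and at 18 months 2 higher and 4 lower (16.6%). Lif was higher with MGT at every age. It had 169 and 166 CPM in MGT and 97.0 and 108 CPM in LacZ neonatal cells, 298 and 300 CPM in MGT and 218 and 179 CPM in LacZ cells at 3 months, and 234 and 245 CPM in MGT and 130 and 125 CPM in LacZ cells at 18 months, with no overlap at any age. The log2 fold changes were 0.71 ± 0.09, 0.59 ± 0.09 and 0.91 ± 0.09 (edgeR adjusted p = 3.2e-06, 1.6e-05 and 3.7e-08).

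Il11 rose with MGT in adult cells. Its log2 fold change was 2.15 ± 0.18 at 3 months (edgeR adjusted p = 2.7e-09) and 1.66 ± 0.20 at 18 months (2.0e-06), and the neonatal value of 0.04 ± 0.39 did not pass the test. The difference in the MGT effect between 3-month and neonatal cells was itself tested as an interaction term and was 2.11 ± 0.44 on the log2 scale for Il11 (edgeR adjusted p = 0.0046), 1 of 2 members called, where 3.70% of all genes were. It was called in 7 of 8 fits with 1 library left out and lost without neonatal LacZ replicate 1 (log2 difference 1.89, adjusted p = 0.101, over a range of 1.6e-06 to 0.101 for its alternatives). Between 18-month and neonatal cells no member was called (2.82% of all genes were). The Il11 difference was 1.62 ± 0.44 and lay at an adjusted p of 0.0503, where it was called with DESeq2, without the low-count filter, with the replicate block and without neonatal MGT replicate 1 (adjusted p from 0.00216 to 0.350 over its alternatives). The neonatal libraries held 27 and 15 counts of Il11 with MGT and 24 and 19 with LacZ, so the neonatal effect was measured on few reads.

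Several receptor genes ran the other way from Lif and Il11. Il6st had 377 and 379 CPM in MGT and 496 and 485 CPM in LacZ neonatal cells, 463 and 444 CPM in MGT and 866 and 666 CPM in LacZ cells at 3 months, and 499 and 512 CPM in MGT and 662 and 729 CPM in LacZ cells at 18 months. MGT libraries were lower than LacZ libraries at each age, by a log2 fold change of -0.38 ± 0.09, -0.76 ± 0.09 and -0.46 ± 0.09. Lifr was lower in MGT cells as well, at -0.80 ± 0.12, -0.92 ± 0.12 and -0.37 ± 0.12, as was Il11ra1 at each age, which at 3 months had 32.2 and 32.2 CPM in MGT and 60.9 and 67.9 CPM in LacZ cells (edgeR adjusted p = 5.1e-08). Il6ra fell at 3 months (-0.70 ± 0.14, edgeR adjusted p = 0.00064), and Osmr was not called at any age, with 340 and 340 CPM in MGT and 397 and 348 CPM in LacZ cells at 3 months. Socs3 was lower with MGT at 3 months (35.8 and 41.8 CPM, against 61.6 and 61.9 CPM in LacZ cells, log2 fold change -0.67 ± 0.14) and at 18 months (14.6 and 16.4 CPM, against 21.2 and 28.2 CPM in LacZ cells, -0.67 ± 0.15). All 7 calls at 3 months held with each library left out in turn. In neonatal cells those of Il6st and Il11ra1, and at 18 months those of Lifr, Il11ra1 and Socs3, were lost in 2 to 4 of 4 such fits (adjusted p up to 0.374 over their alternatives). The effect on Il11ra1 was stronger at 3 months than in neonatal cells (difference -0.66 ± 0.15, edgeR adjusted p = 0.0076, lost without neonatal LacZ replicate 2, 0.0561) and weaker at 18 than at 3 months (0.69 ± 0.15, 0.010), the single member called there (2.34% of all genes were), a call lost in 4 of 8 fits, without 18-month LacZ replicate 1, either 3-month MGT library or 18-month MGT replicate 2 (up to 0.119).

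In the pathway around the members, 2 of 8 signal relay genes fell with MGT at 3 months and none rose, and Jak1 fell by 0.50 ± 0.08 on the log2 scale. Of 16 STAT3 targets tested, 2 rose and 8 fell at 3 months, with Pim1 at -0.72 ± 0.10 and Saa3, an acute-phase gene, at 2.42 ± 0.19, while 1 rose and 3 fell in neonatal cells and 1 rose and 1 fell at 18 months. Over all genes tested, 17.4% differed with MGT at 3 months, 7.51% in neonatal cells and 16.6% at 18 months. Cish, another feedback gene, rose at 3 months by 1.48 ± 0.12. The ligand gene Osm rose there by 2.33 ± 0.61 and was the single one of 5 other ligands tested to be called. Of the marker sums given above, the epicardial and mesothelial one was lower with MGT than with LacZ in neonatal cells and higher at 3 and 18 months, the pericyte and smooth muscle one was higher with MGT at each age, and the fibroblast one was lower with MGT in neonatal and 3-month cells, with overlapping ranges at 18 months. The summed macrophage markers were 181 to 252 CPM in MGT and 217 to 273 CPM in LacZ neonatal cells, 435 to 450 CPM in MGT and 336 to 344 CPM in LacZ cells at 3 months, and 395 to 464 CPM in MGT and 351 to 374 CPM in LacZ cells at 18 months. The cardiomyocyte markers were 374 to 401 CPM in MGT and 4.66 to 5.50 CPM in LacZ cells at 3 months, where up to 6 of 10 were at 0 in LacZ libraries. Their part in the changes of the members was not tested. The 3-month LacZ libraries were also less alike than those of other groups of this table, with a chi-square per degree of freedom of 18.9 between them, against 2.29 to 6.66 in the other groups.

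Overexpression of Nr4a3 in neonatal CFs moved the family in both directions, by small amounts. In OE-Nr4a3 cells 3 members were higher and 3 lower than in OE-Ctrl cells (22.7% of 15029 genes differed). Il11 had 2.37 and 2.00 CPM in OE-Nr4a3 and 0.969 and 0.957 CPM in OE-Ctrl cells, a log2 fold change of 1.18 ± 0.36 on 43 and 36 counts against 14 and 16 (edgeR adjusted p = 0.043). Il6st had 810 and 841 CPM in OE-Nr4a3 and 657 and 506 CPM in OE-Ctrl cells (0.51 ± 0.13, 0.023), and Osmr 338 and 325 CPM in OE-Nr4a3 and 281 and 230 CPM in OE-Ctrl cells (0.38 ± 0.11, 0.043). Lif had 25.6 and 24.6 CPM in OE-Nr4a3 and 40.2 and 37.7 CPM in OE-Ctrl cells (-0.63 ± 0.12, 0.0078), Il6 43.6 and 38.6 CPM in OE-Nr4a3 and 50.4 and 62.6 CPM in OE-Ctrl cells (-0.46 ± 0.13, 0.037), and Il11ra1 55.1 and 56.4 CPM in OE-Nr4a3 and 66.2 and 83.6 CPM in OE-Ctrl cells (-0.43 ± 0.13, 0.041). Clcf1, Il6ra, Lifr and Socs3 were not called, and Socs3 had 29.7 and 28.3 CPM in OE-Nr4a3 and 30.8 and 29.9 CPM in OE-Ctrl cells.

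The 6 calls were lost without either OE-Nr4a3 library, where the spread within groups came from the OE-Ctrl pair alone. The log2 fold changes stayed near those given above. Without OE-Nr4a3 replicate 1 and replicate 2 they were -0.54 and -0.37 for Il6, -0.65 and -0.60 for Lif, and 1.06 and 1.30 for Il11. For Il6st they were 0.54 and 0.49, for Osmr 0.36 and 0.41, and for Il11ra1 -0.40 and -0.43. The call of Il11 was also lost without OE-Ctrl replicate 2 and with DESeq2. Over all genes, the fits with 1 library left out called 1197 to 7704, against 3410 with all libraries. The OE-Ctrl libraries differed from each other more than the OE-Nr4a3 libraries, with a chi-square per degree of freedom of 15.5 against 2.55. Of 8 signal relay genes 4 rose and none fell, and of 15 STAT3 targets tested 2 rose and 3 fell, with Serpina3n at 2.16 ± 0.12 and Timp1 at -0.82 ± 0.12, where 22.7% of all genes differed. The summed macrophage markers were 640 to 662 CPM in OE-Nr4a3 and 971 to 991 CPM in OE-Ctrl cells, the epicardial and mesothelial markers 492 to 527 CPM in OE-Nr4a3 and 1089 to 1148 CPM in OE-Ctrl cells, and the fibroblast markers 33470 to 34400 CPM in OE-Nr4a3 and 25590 to 31480 CPM in OE-Ctrl cells. In the same order, the cardiomyocyte markers were 269 to 294 and 455 to 502 CPM and the endothelial markers 53.8 to 60.0 and 65.6 to 67.7 CPM. The pericyte and smooth muscle markers were 1037 to 1102 CPM in OE-Nr4a3 and 656 to 812 CPM in OE-Ctrl cells. Xist averaged 484 ± 0.755 CPM in OE-Nr4a3 and 253 ± 41.2 CPM in OE-Ctrl cells (SD, n = 2 each). The part of these differences was not tested.

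Knockdown of Nr4a3 in 3-month MGT cells changed all 10 members at an adjusted p under 0.05, 4 up and 6 down, in a comparison in which 54.5% of 18045 genes were called. The ligand gene Il6 had 20.9 and 14.8 CPM in MGT+shNr4a3 and 50.1 and 52.8 CPM in MGT+shNT cells, a log2 fold change of -1.53 ± 0.14 (edgeR adjusted p = 1.8e-06). Clcf1 had 2.66 and 3.07 CPM in MGT+shNr4a3 and 9.41 and 6.58 CPM in MGT+shNT cells (-1.48 ± 0.22, 8.3e-05). Il11 had 12 and 2 counts in MGT+shNr4a3 and 53 and 32 counts in MGT+shNT cells (-2.61 ± 0.73, 0.0082). Lif went the other way from the other ligands, with 85.0 and 86.5 CPM in MGT+shNr4a3 and 48.9 and 50.3 CPM in MGT+shNT cells (0.79 ± 0.08, 4.5e-06).

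Among the receptors the shared chain and the oncostatin M receptor fell, and the specific chains for Lif, IL-6 and IL-11 rose. Osmr had 40.0 and 37.3 CPM in MGT+shNr4a3 and 132 and 141 CPM in MGT+shNT cells (log2 fold change -1.82 ± 0.09, edgeR adjusted p = 2.7e-09), the smallest p of the 10 genes. Il6st had 235 and 251 CPM in MGT+shNr4a3 and 435 and 488 CPM in MGT+shNT cells (-0.93 ± 0.09, 1.2e-06). Lifr had 14.5 and 16.1 CPM in MGT+shNr4a3 and 7.55 and 7.76 CPM in MGT+shNT cells (1.00 ± 0.14, 4.1e-05), so Lif and its receptor chain rose together. Il11ra1 had 62.8 and 50.5 CPM in MGT+shNr4a3 and 30.7 and 32.6 CPM in MGT+shNT cells (0.84 ± 0.11, 3.3e-05). Il6ra had 4.67 and 5.97 CPM in MGT+shNr4a3 and 3.53 and 3.82 CPM in MGT+shNT cells (0.53 ± 0.21, 0.046). Socs3 had 6.75 and 5.90 CPM in MGT+shNr4a3 and 21.7 and 12.3 CPM in MGT+shNT cells (-1.42 ± 0.23, 0.00044). The call of Il6ra was lost in 3 of 4 fits with 1 library left out and with DESeq2 (adjusted p up to 0.270 over its alternatives), that of Socs3 without either MGT+shNr4a3 library (up to 0.0752), and that of Il11 without MGT+shNT replicate 1 (log2 fold change -2.15, adjusted p = 0.108, the highest of its alternatives).

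**Figure D3:**
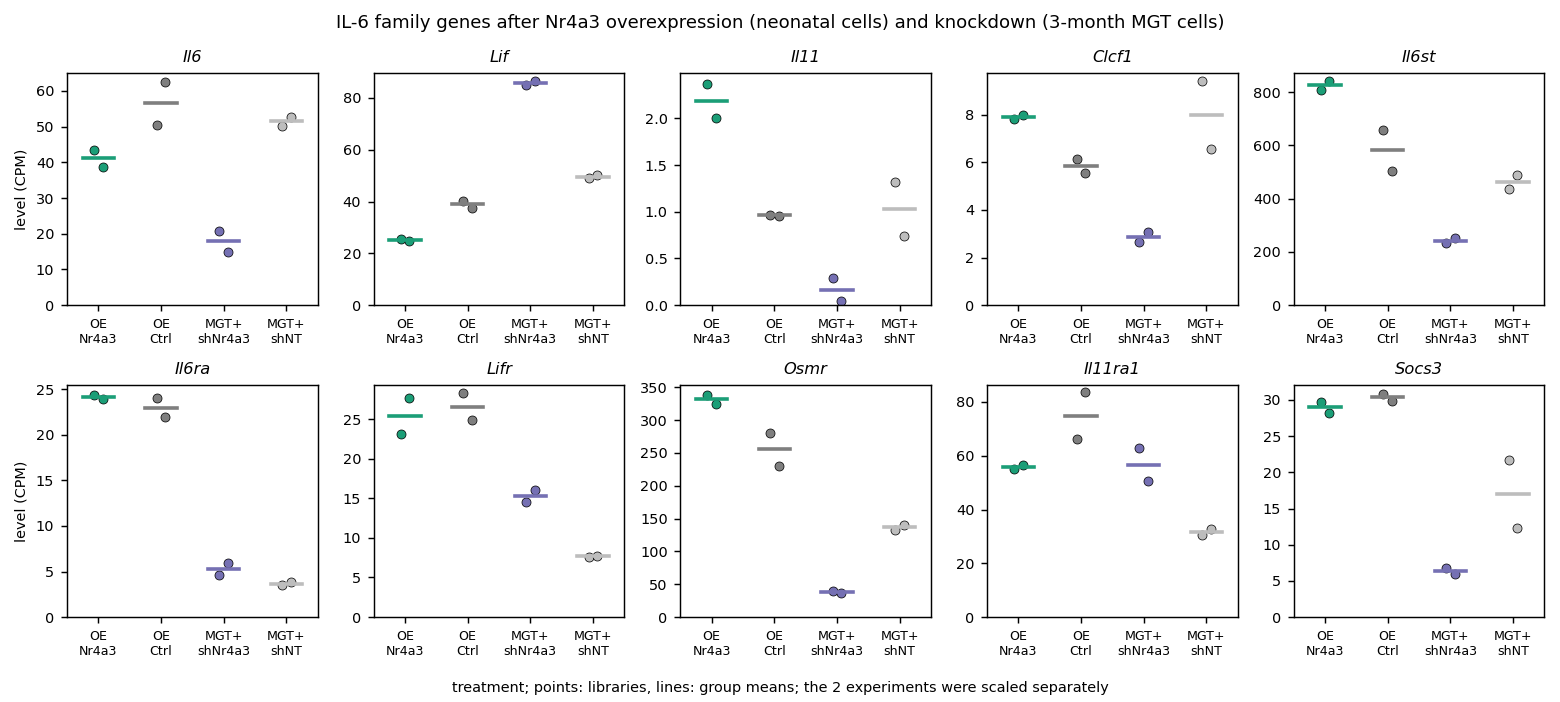
Levels of the 10 genes in CPM (linear axes from 0) in OE-Nr4a3 and OE-Ctrl neonatal cells and in MGT+shNr4a3 and MGT+shNT 3-month cells, with a point per library (n = 2) and a line at the group mean. The points of Lif, Lifr and Il11ra1 lie higher in MGT+shNr4a3 than in MGT+shNT cells and those of Il6, Osmr and Il6st lower, and the 2 experiments were scaled separately.

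Of 8 relay genes 6 were lower with the knockdown and Ptpn11 was higher, where 54.5% of all genes were called. Stat3 fell by 1.62 ± 0.10 on the log2 scale. Of 16 STAT3 targets tested 12 fell and 2 rose, with Ccl2 at -4.35 ± 0.11, Icam1 at -2.07 ± 0.09, Timp1 at -1.95 ± 0.10 and Junb at -1.88 ± 0.11, and a median of -1.26 beside 0.01 over all genes. Vegfa and Myc, named because they were the pair that rose, rose by 1.44 ± 0.08 and 0.31 ± 0.11. Adam17 and Adam10, the sheddases, fell by 1.52 ± 0.09 and 0.38 ± 0.08, and the feedback gene Socs2 fell by 2.05 ± 0.15. Cntfr, the ciliary neurotrophic factor receptor gene, rose by 3.09 ± 0.15. The summed fibroblast markers were 16270 to 17540 CPM in MGT+shNr4a3 and 8836 to 10110 CPM in MGT+shNT cells, and the cardiomyocyte markers 5535 to 6310 CPM in MGT+shNr4a3 and 9470 to 11060 CPM in MGT+shNT cells. The pericyte and smooth muscle markers were 997 to 1041 CPM in MGT+shNr4a3 and 300 to 341 CPM in MGT+shNT cells, and the macrophage markers 112 to 117 CPM in MGT+shNr4a3 and 127 to 162 CPM in MGT+shNT cells. Their part in the changes of the members was not tested. The MGT+shNr4a3 libraries differed from each other with a chi-square per degree of freedom of 24.2 and the MGT+shNT libraries with 12.2.

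**Figure D4:**
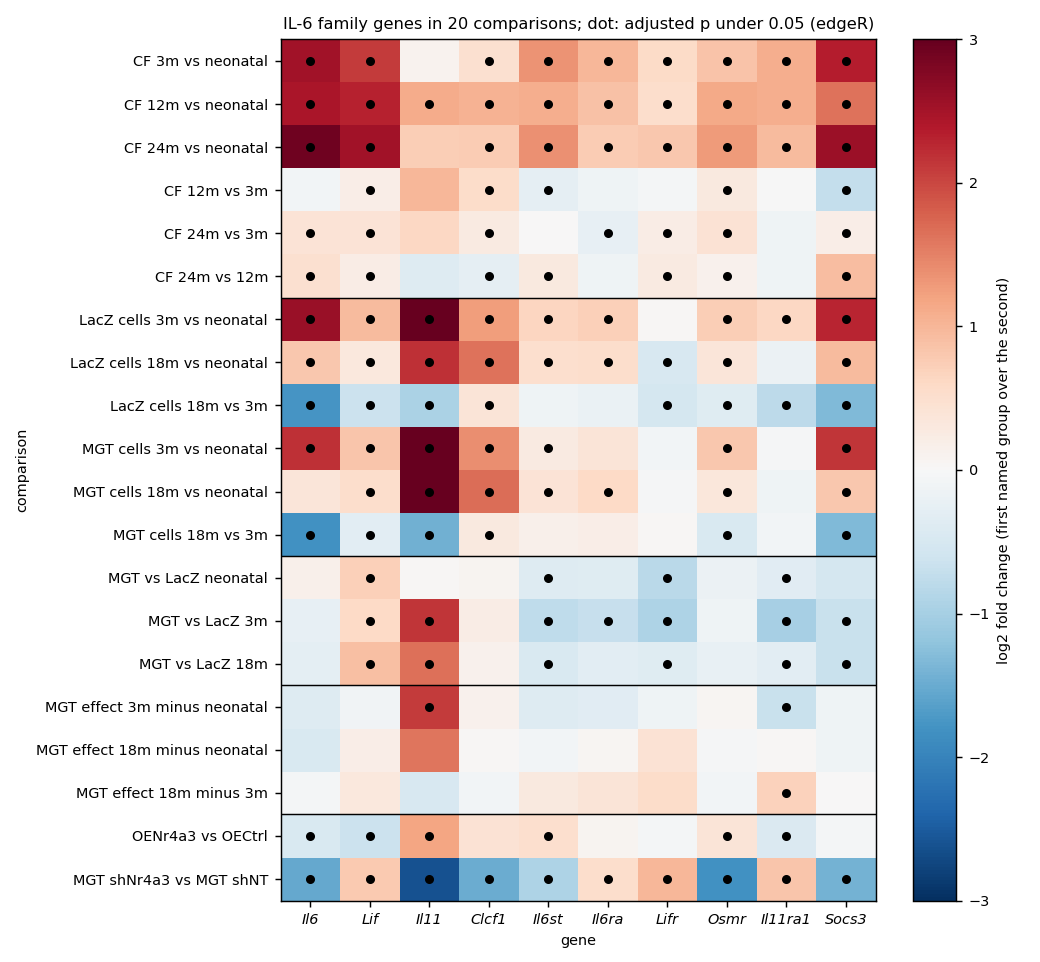
Log2 fold change of the 10 genes (columns) in 20 comparisons (rows), red where the first named group was higher, blue where it was lower, with a dot at an edgeR adjusted p under 0.05 and colours that stop at 3 and -3. The rows of adult against neonatal CFs are red with a dot for every gene but Il11. Il11 was at 0.11, 1.12 and 0.73 at 3, 12 and 24 months, with a dot at 12 months only. The knockdown row holds both colours with a dot in each cell.

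Levels of different genes can be compared per length, as CPM per kilobase of exon. In CFs Il6st stood first at every age, at 62.0 ± 0.81 CPM per kilobase in neonatal, 158 ± 1.8 in 3-month, 131 ± 0.44 in 12-month and 160 ± 1.0 in 24-month cells (SD, n = 2 each). Il6 came in the fourth place in neonatal CFs, at 9.17 ± 1.0 CPM per kilobase after Osmr at 18.4 ± 0.23 and Il11ra1 at 12.99 ± 0.43, and second at each adult age, at 52.3 ± 3.9, 49.6 ± 1.1 and 69.5 ± 1.6. In 3-month CFs Socs3, Il11ra1 and Lif, at 28.0 ± 1.3, 27.7 ± 1.8 and 26.7 ± 1.6, lay within their spread of each other. Il6 led in all 6 MGT and LacZ groups, at 249 ± 15 in 3-month MGT and 294 ± 50 CPM per kilobase in 3-month LacZ cells. In neonatal LacZ cells, at 49.1 ± 5.0, it lay within its spread of Il6st, at 44.2 ± 0.69. Il11 was last in all CF groups and took the fifth place in 3-month MGT cells, at 22.7 ± 4.1 CPM per kilobase. In MGT+shNr4a3 cells Lif, at 19.7 ± 0.25, came second after Il6st, at 21.9 ± 1.0.

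Among 9398 genes with a mean log2 CPM of at least 3, those whose profile, centred within each table, over the 20 libraries of the CF and the MGT and LacZ tables was most like that of Il6 were Stat3, Prdx5, Pde1a, Nfatc4 and Slc39a14, with Pearson r of 0.968, 0.966, 0.965, 0.958 and 0.958. Those nearest to Il11 were Zfp52, Uap1, Cd55, Spp1 and Rnf149 (r = 0.937, 0.933, 0.912, 0.896 and 0.895). Those nearest to Il6st were Jak1, Arhgap42, Prelp, Adamts9 and Dtx4 (r = 0.972, 0.971, 0.957, 0.954 and 0.953). The libraries share table, age and vector, so these values are descriptions without a test.

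Single MGT cells show which cells carried the transcripts. After filtering, 5773 cells of the 24-month and 3828 cells of the neonatal library were kept, and 6 kept barcodes occurred in both. With 1 library per age there is no test, and intervals are exact 95% intervals that cover counting error only. Over all kept cells Il11 was at 11.6 CPM (11.1 to 12.2) in 24-month and 1.57 CPM (1.36 to 1.81) in neonatal cells, a ratio of 7.39 (6.37 to 8.62), the largest of the 10 genes. Socs3 followed at 40.1 CPM (39.1 to 41.1) in 24-month and 7.83 CPM (7.34 to 8.34) in neonatal cells, a ratio of 5.12 (4.79 to 5.49). Ratios were 3.12 for Osmr, 3.11 for Lifr, 2.98 for Clcf1, 2.73 for Il6st, 1.72 for Il6ra, 1.59 for Il11ra1 and 1.22 for Lif. Il6 alone was level, at 48.8 CPM (47.7 to 49.9) in 24-month and 48.2 CPM (47.0 to 49.4) in neonatal cells, a ratio of 1.01 (0.978 to 1.05).

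Cells were clustered without the 10 genes into 19 clusters, and clusters were named from marker genes, so the names are rebuilt and not the authors'. Of the 24-month cells 2944 were fibroblast-like, 736 macrophage-like and 20 cardiomyocyte-like, and of the neonatal cells 920, 197 and 1597, while 2051 and 974 cells stayed unnamed. Most fibroblast-like cells came from different clusters at the 2 ages, cluster 0 with 2591 of the 24-month and cluster 5 with 764 of the neonatal cells. Il6 was higher in fibroblast-like than in macrophage-like cells, at 54.3 CPM in 24-month and 78.9 CPM in neonatal fibroblast-like cells, against 2.19 and 1.05 CPM in macrophage-like cells of the 2 ages and 15.5 CPM in neonatal cardiomyocyte-like cells. The unnamed cells held it too, at 50.7 CPM in 24-month and 56.4 CPM in neonatal cells. Over all fibroblast-like cells Il6 was lower at 24 months, but its level differed between clusters. At 24 months it was at 51.9 CPM in cluster 0, 50.9 CPM in cluster 8 and 114 CPM (105 to 124) in cluster 10 (137 cells). Among unnamed cells it was at 183 CPM in cluster 9 and 37.4 CPM in cluster 1 at 24 months. In neonatal cells of cluster 9 it was at 63.5 CPM. Il6st was higher in 24-month fibroblast-like cells, at 217 CPM (215 to 220), than in neonatal ones, at 83.4 CPM (81.2 to 85.7). Osmr was at 129 CPM in 24-month and 44.9 CPM in neonatal fibroblast-like cells, and Socs3 at 42.7 CPM in 24-month and 7.96 CPM in neonatal ones. Lifr was at 24.6 CPM in 24-month and 8.16 CPM in neonatal fibroblast-like cells, and Il11 at 12.9 CPM in 24-month and 2.02 CPM in neonatal ones. In the 75 neonatal endothelial-like cells Il6st was at 137 CPM (122 to 153), Lifr at 39.5 CPM (31.6 to 48.7) and Socs3 at 27.7 CPM (21.2 to 35.5), each above its level in neonatal fibroblast-like cells. The order was reversed at 24 months, where the library held 22 such cells. There Il6st was at 97.1 CPM (67.6 to 135), Lifr at 8.32 CPM (1.72 to 24.3, on 3 UMIs) and Socs3 at 2.77 CPM (0.0702 to 15.5, on 1 UMI). Each lay below its level in 24-month fibroblast-like cells.

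Il6ra had the opposite cell pattern. It was at 15.9 CPM (13.9 to 18.1) in 24-month and 15.5 CPM (12.5 to 19.1) in neonatal macrophage-like cells, against 5.48 CPM (5.08 to 5.90) and 4.50 CPM (3.99 to 5.06) in fibroblast-like cells of the 2 ages. Among 24-month macrophage-like cells it was at 16.2 CPM in cluster 6 (341 cells) and 21.6 CPM in cluster 14 (59 cells). In cluster 7 (336 cells), with a median of 2265 UMIs, it was at 5.17 CPM (2.23 to 10.2), on 8 UMIs. The unnamed clusters 9 and 12 had 12.2 and 10.4 CPM at 24 months. Osm, the ligand of the Osmr complex and no member of the set, was at 10.6 CPM (8.95 to 12.4) in 24-month and 7.85 CPM (5.72 to 10.5) in neonatal macrophage-like cells, on 154 and 45 UMIs, and had 3 UMIs in fibroblast-like cells of each age. Macrophage-like cells had little Osmr, at 4.66 CPM in 24-month and 1.22 CPM in neonatal cells. Median depth was 40500 and 58254 UMIs in 24-month and neonatal fibroblast-like and 19336 and 26812 UMIs in macrophage-like cells. Il11ra1 was found in both classes, at 160 and 108 CPM in 24-month and neonatal fibroblast-like and 66.4 and 61.7 CPM in macrophage-like cells. Socs3 in macrophage-like cells was at 26.9 CPM in 24-month and 10.98 CPM in neonatal cells. Doublets were not removed, no caller was run, and the part of free RNA was not tested.

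**Figure D5:**
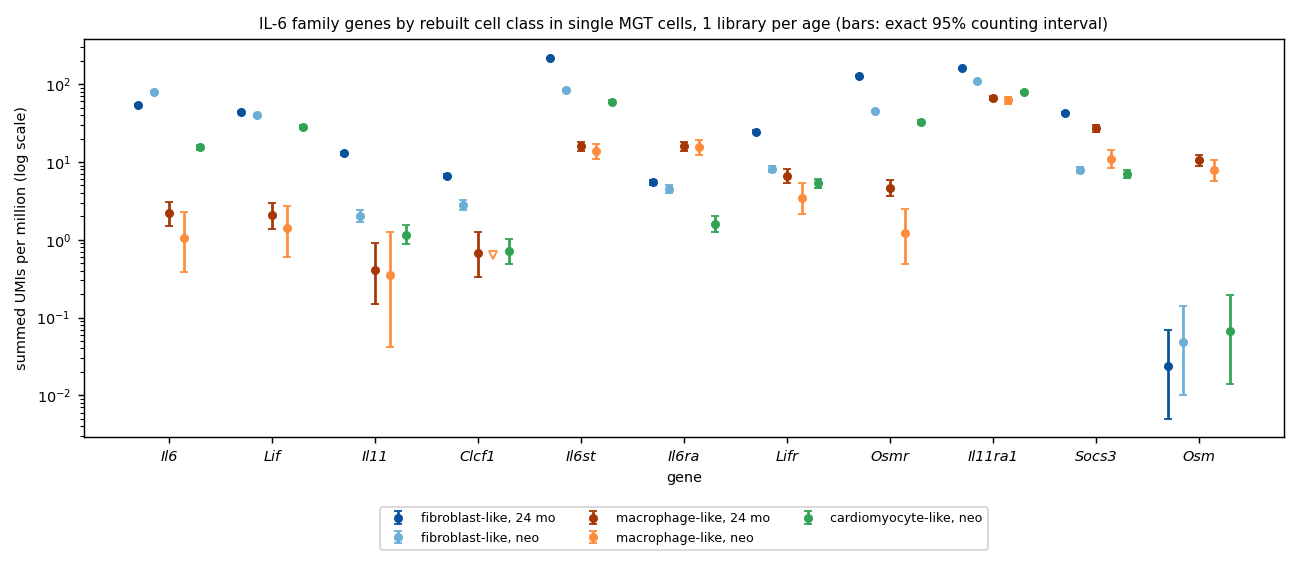
Levels in CPM of summed UMIs (log axis) of the 10 genes and Osm in rebuilt classes of single MGT cells, with bars for exact 95% counting intervals and an open triangle at the upper limit where no UMI was found, 1 library per age. Il6, Lif, Il11, Clcf1, Il6st and Osmr lie higher in fibroblast-like than in macrophage-like cells, and Il6ra and Osm lie higher in macrophage-like cells.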

How the data were processed

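Gene levels in 28 bulk libraries were deposited by the authors as raw counts per gene in 4 tables, and the 2 single-cell libraries as matrices of UMI counts per gene and barcode. The tools named in the submitters' processing notes are SAMtools, featureCounts (Subread 1.5.1) and Trimmomatic 0.36, with the build mm10, while the aligner and annotation are not given in the sources used here. Per the labels' protocols, rRNA depletion and a stranded kit were used. Column names of the tables were matched to the sample titles by group and replicate. In the MGT and LacZ table the MGT columns name the day and age without the vector. They were taken as MGT because the LacZ columns are named apart. The OE-Ctrl columns are headed GFP. The headings give the 12-month CFs an age 1 month higher and the 18-month cells an age 3 months lower than the labels, whose ages are used here, and 4 columns of the knockdown table that match no sample were not used.

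The 10 members and the lists of other genes were chosen with earlier results of these data known. Each table was filtered (filterByExpr), scaled by TMM and tested with the quasi-likelihood test of edgeR 4.0.16 (R 4.3.3), with Benjamini-Hochberg adjustment over all genes tested and a threshold of 0.05. The scripts were tested on simulated data. Alternatives were DESeq2 1.42.0, its size factors, no low-count filter, the replicate number as a block, and leaving out each library. Named were the members, up to 4 genes per list with the smallest p, the label checks, Xist, the copies of Il11ra1 and the 5 nearest profiles, and a gene outside this rule is marked where it is named. Some genes that the rule names are not reported here.

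A barcode was kept as a cell when it held 500 genes or more and no more than 20% of its counts were mitochondrial. Cells were clustered (leidenalg 0.10.2, resolution 0.5) on 2000 variable genes and 50 principal components. UMI counts were summed per library and class, without a test. Replicate numbers did not pair the libraries of different groups, whose deviations correlated at -0.106 to 0.0957.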

Additional observations from a re-analysis of the deposited data

Results flagged for a closer look

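The effect of MGT against LacZ on Il11 differed between ages when the difference itself was tested. It was larger in 3-month than in neonatal cells by 2.11 ± 0.44 on the log2 scale (SE, edgeR interaction term, adjusted p = 0.0046, n = 2 libraries in each of 4 groups).

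The effect on Il11ra1 also differed between ages. It was more negative in 3-month than in neonatal cells, by -0.66 ± 0.15 (edgeR adjusted p = 0.0076), and less negative in 18-month than in 3-month cells, by 0.69 ± 0.15 (0.010). Both differences involve the 3-month cells, so they share libraries. The ligand gene and its receptor gene moved in opposite directions with MGT at 3 months, and each of these differences was lost in at least 1 fit with a library left out.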

How the results depend on the processing

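Of 200 pairs of a member and a comparison, 129 were called, 118 of them under every setting that kept all libraries, and 93 under every alternative. DESeq2 lost 11 calls, omitting the low-count filter 5, and the other size factors none. Leaving out a library gave 2 to 3 called members for MGT against LacZ in neonatal cells (4 with all libraries) and 3 to 5 at 18 months (6). It gave 1 to 3 for the difference in MGT effect between 3-month and neonatal cells (2), 0 to 1 between 18-month and neonatal cells (0) and 0 to 4 between 18-month and 3-month cells (1). It gave 5 to 9 for 18-month against 3-month LacZ cells (8) and 0 to 7 for OE-Nr4a3 against OE-Ctrl (6). For the difference in MGT effect between 18-month and neonatal cells, 1 member was called with DESeq2, 2 without the low-count filter and 1 with the replicate block, against 0. The block otherwise lost only Clcf1 at 24 against 3 months in CFs (adjusted p = 0.0559). Il11 at 3 months against neonatal CFs was not called, and its log2 fold change ran from -0.25 to 0.52 over the fits with a library left out, below 0 without 3-month replicate 2 (-0.25) and without neonatal replicate 2 (-0.20). The cause of these shifts was not tested. DESeq2 called 3091 genes at 12 against 3 months in CFs (4691 with edgeR), 1898 at 24 against 3 months (3017) and 1971 at 24 against 12 months (3110). Using all barcodes moved no member's single-cell CPM outside its interval. With 2 libraries a group the error estimates are weak, and Il11, at 7 to 24 counts a library in the CF table and 15 to 27 in neonatal MGT and LacZ cells, is limited by depth.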
